A study of Rattus norvegicus with 10 samples.

Results

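The regions described here are 6 windows of the rat genome (build rn4) in which the list of N6-methyladenosine (m6A) peaks of quiescent cardiomyocytes held many more peaks than the list of hypertrophic cardiomyocytes. Of the 6 windows, 3 lie on chromosome 16, at positions 21000001 to 22000000, 27000001 to 28000000 and 37000001 to 38500000, called here the first, the second and the third chromosome 16 window. Another lies on chromosome 17 at 67000001 to 68500000, and the first and second chromosome 1 windows lie at 50000001 to 51000000 and 52000001 to 53000000. A peak is a member when its summit, the highest base of its read pileup, falls inside a window, which gave 751 members of 133979 peaks in all: 511 of 68440 quiescent and 240 of 65539 hypertrophic peaks. The windows were chosen by the number of quiescent against hypertrophic peaks in these same lists, so those counts are a description and nothing is read from their size.

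The cells were primary cardiomyocytes of newborn rats. Hypertrophic cells were kept in medium M199 with 2% bovine serum and quiescent cells in the same medium without serum, and RNA pieces carrying m6A were pulled down with an antibody and sequenced (MeRIP-seq). The labels give 10 libraries in 5 groups of 2: input RNA and m6A immunoprecipitates of each condition, and immunoprecipitates with normal IgG, which came from hypertrophic cells only. The deposited lists are 1 per condition, each called against that IgG control, so the quiescent peaks were called against RNA of the other condition.

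m6A is a methyl mark on adenosines inside messenger and long noncoding RNA. A complex built around the enzymes METTL3 and METTL14 writes it, FTO and ALKBH5 remove it, and proteins with a YTH domain bind it and affect the splicing, translation and decay of the RNA. In heart muscle cells the writer METTL3 has been linked to hypertrophic growth. A peak in a MeRIP-seq list marks a stretch of the transcribed genome with more pulled-down reads than the control, so its presence depends on the amount of the RNA as well as on the mark, and the lists do not separate these contributions. In such bulk cultures, fewer cells of a type and less RNA per cell cannot be told apart either.

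Because the lists carry no strand or gene name and no genome of build rn4 was used here, peaks are named by position, and the genes below them, the cell type markers and the bases under the summits were not analysed here. Each peak has a score, which in MACS 1.4 output grows with minus the log10 of the p-value, with 50 as the lowest score in either list, and a summit height, the number of piled-up reads, whose scaling is not stated. With 1 list per condition there is no spread between replicates, so no value below carries an error and no test was made. The sources used here do not say whether a list pools both libraries of its condition.

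A quiescent peak was called quiescent-only when it overlapped no hypertrophic peak by even 1 bp, and shared otherwise. The 6 windows together held 295 quiescent-only peaks, 57.7% of their 511 quiescent peaks, where the whole quiescent list had 29.0%. They held 19 hypertrophic-only peaks, 7.92% of 240, where the whole hypertrophic list had 25.8%. When sharing was set by summits within 100 bp instead of overlap, these were 56 of 240 (23.3%) against 34.8%. The first chromosome 16 window had 44 quiescent-only and 3 hypertrophic-only peaks, the second 87 and 6, and the third 28 and 4. On chromosome 17 the counts were 67 and 4, and on chromosome 1 they were 35 and 2 in the first window and 34 and 0 in the second. By overlap, the excess in each window thus consisted of quiescent-only peaks beside hypertrophic peaks that were mostly shared. The exception was the third chromosome 16 window, where only 4 of 8 hypertrophic peaks were shared. By summits within 100 bp, 16 of 23 hypertrophic peaks on chromosome 17 were hypertrophic-only. By that rule the chromosome 16 windows had 13 of 45, 15 of 95 and 4 of 8 in order. The chromosome 1 windows had 4 of 34 and 4 of 35. Joining peaks of a list that lay within 1000 bp of each other left 163 quiescent-only peaks, and counting only those that scored 100 or more left 84.

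**Figure D1:**
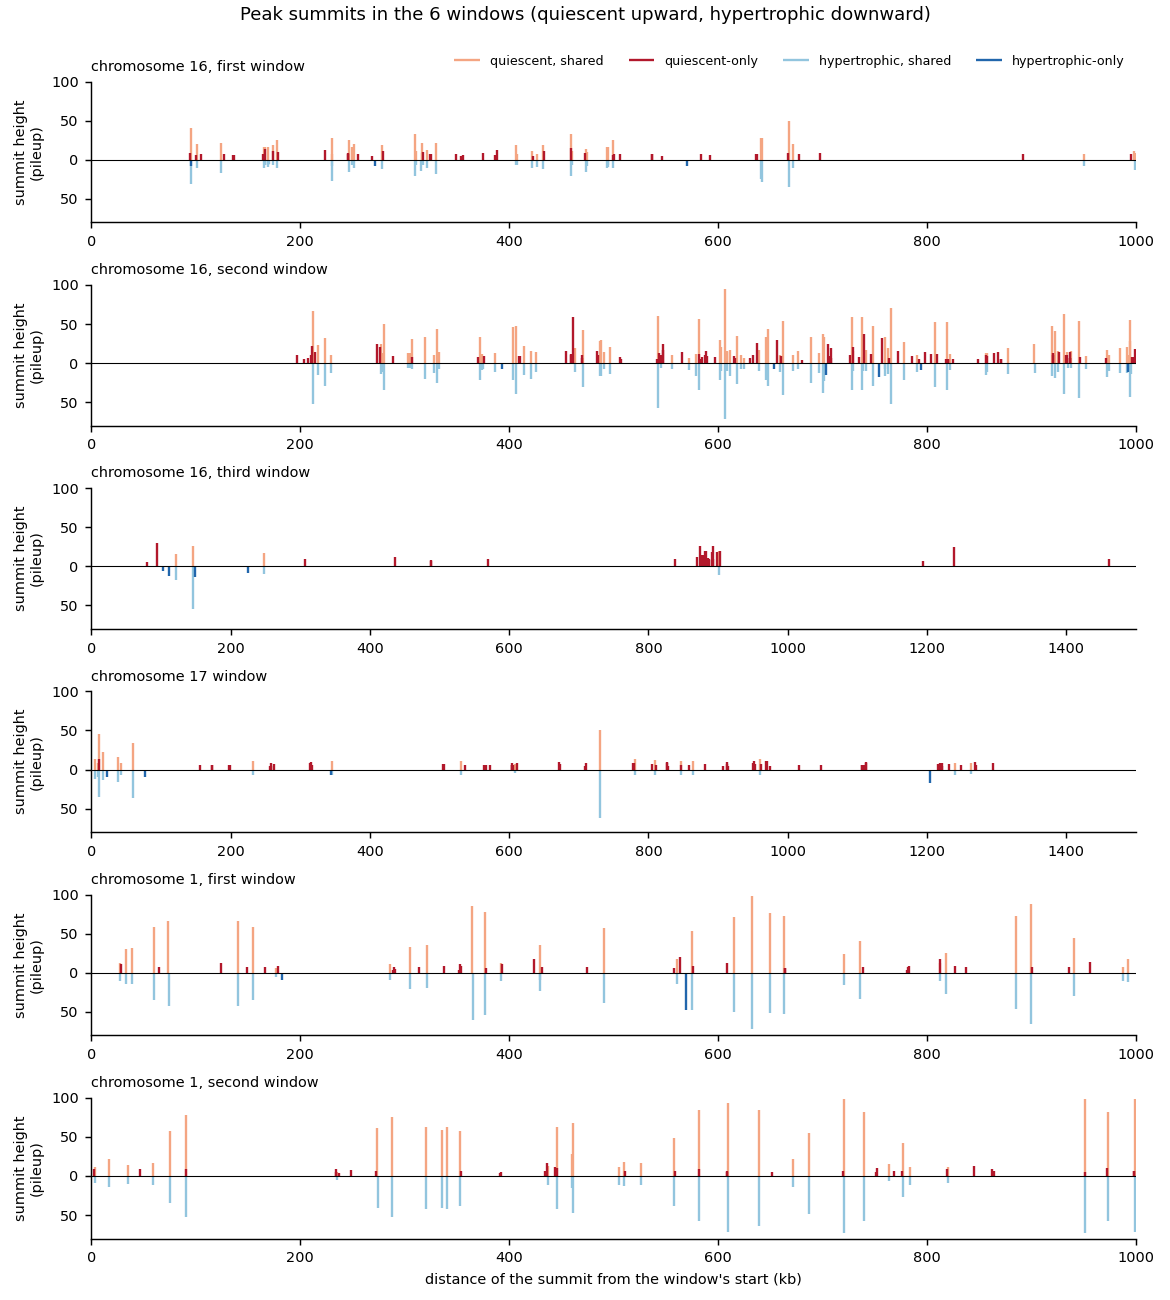
Summit height of every peak in the 6 windows (vertical axis, piled-up reads; quiescent peaks upward and hypertrophic peaks downward) against the distance of its summit from the window's start in kb, with condition-only peaks in the darker colour. The dark red quiescent-only peaks stand low between taller shared peaks in most windows, with a median height of 8 against 20 for the shared quiescent peaks.

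The quiescent-only peaks of the windows were low but of ordinary strength for such peaks. Their median score was 76.5, against 76.3 for all quiescent-only peaks of the list, and their median height was 8 against 9. Their median width was 266 bp against 264 bp. By window the median score was lowest on chromosome 17 and highest, at 86.1, in the second chromosome 16 window, and the median height from 6.5 in the second chromosome 1 window to 11.5 in the third chromosome 16 window. A score of at least 100 was reached by 84 of the 295 (28.5%, against 30.3% in the whole list), and a score of at least 200 by 17 (5.76%, against 7.86%). Summits of 20 or more reads were fewer, 5.76% against 14.8%, and summits of 6 or fewer were more, 29.5% against 19.4%, with 32 of those 87 low peaks in the chromosome 17 window. These peaks were thus close to other quiescent-only peaks in median score and width and held a smaller share of tall summits.

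The quiescent-only peaks of the windows often followed each other directly. A run is a series of quiescent-only peaks in order of their summits with no hypertrophic and no shared peak between them. Across the whole list 5.97% of quiescent-only peaks lay in runs of 5 or more, and 48.9% stood alone between other peaks. In the windows 115 of 295 (39.0%) lay in runs of 5 or more and 58 (19.7%) stood alone. These shares follow in part from the choice of the windows, since a region crowded with quiescent-only peaks gives longer runs. The windows held 16 runs of 5 or more: 2, 3 and 2 in the chromosome 16 windows in order, 7 on chromosome 17 and 1 in each chromosome 1 window. They included the longest run of the whole quiescent list, with 22 peaks, while the longest hypertrophic-only run of the genome had 11 peaks. The longest hypertrophic-only run in any of the windows had 2 peaks, in the third chromosome 16 window.

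**Figure D2:**
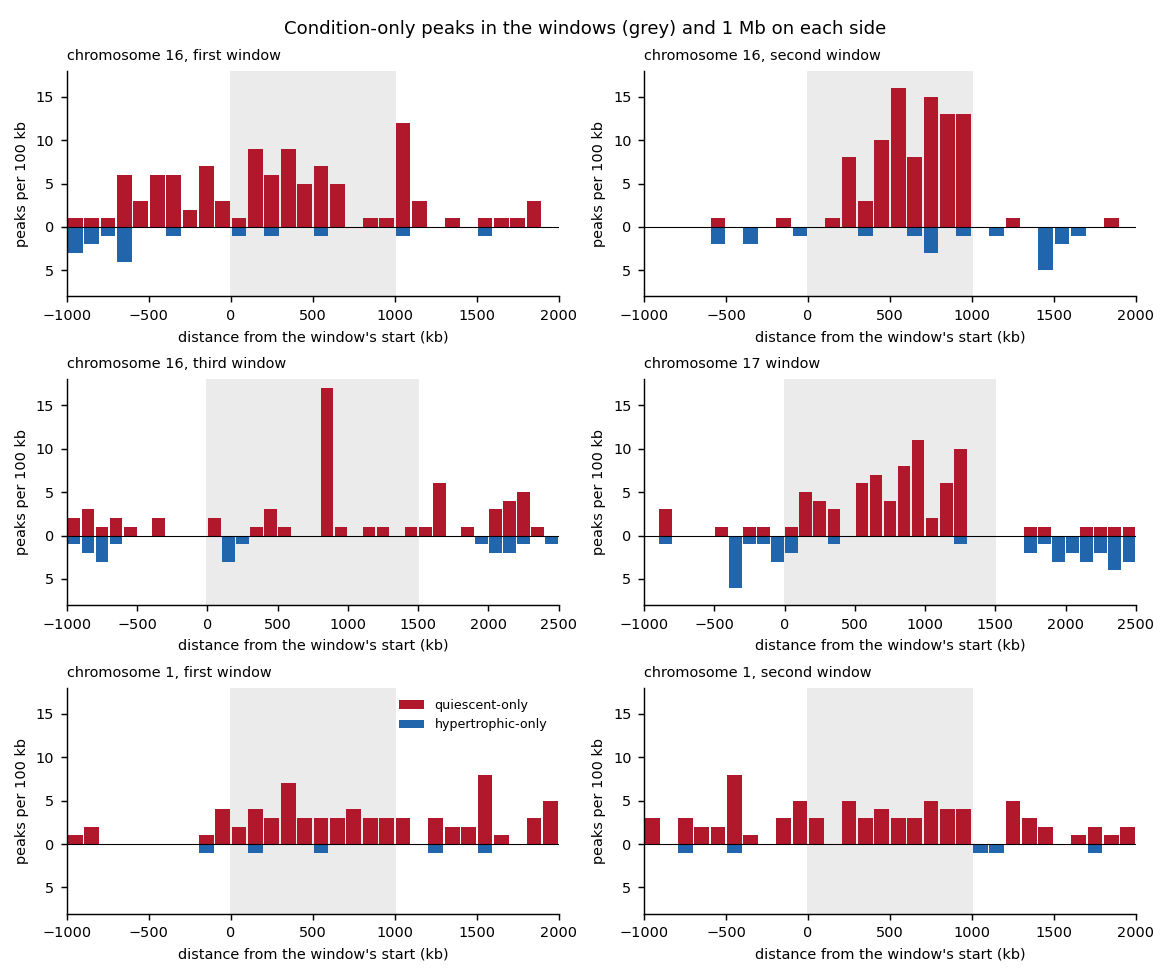
Quiescent-only (red, upward) and hypertrophic-only (blue, downward) peaks per 100 kb against the distance from the window's start in kb, for each window (grey) and 1 Mb on each side. The second chromosome 16 window and the chromosome 17 window fall to few quiescent-only peaks on both sides, while in the first chromosome 16 and both chromosome 1 windows the red bars go on past the grey.

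In the first chromosome 16 window most peaks lay in the lower part. The first summit of either list lay at 21094873, and after 21697718 no quiescent summit followed for 193992 bp, beyond which the window held 2 quiescent-only and 3 shared quiescent peaks. Quiescent-only peaks outnumbered hypertrophic-only peaks in 8 of 10 bins of 100 kb, with at most 9 in a bin, in those from 21100001 to 21200000 and from 21300001 to 21400000. The longest runs had 6 peaks each. The run from 21349475 to 21388626 had scores of 56.91 to 176.45 and heights of 5 to 13, and the run from 21499757 to 21546424 had scores of 53.06 to 113.35 and heights of 5 to 8. These were faint peaks, while the 3 quiescent-only peaks that scored 200 or more all stood outside such runs.

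The highest-scoring of those 3, at chr16:21458818-21459470, scored 334.57 at a height of 15 and ended 89 bp from a hypertrophic peak. The widest, at chr16:21166271-21167023, scored 327.05 at a height of 14 and lay 59 bp from a hypertrophic peak. Both thus lay at the flank of a site marked in both conditions, while the remaining one, with its summit at 21223658 and a score of 291.51, lay 6245 bp from the nearest hypertrophic peak. The strongest shared site, at chr16:21308539-21309709, scored 1625.58 with a height of 33 in the quiescent list and 517.6 with a height of 20 in the hypertrophic list. The 3 hypertrophic-only peaks were all faint, the weakest with a score of 50.43, and had a height of 8 each.

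The second chromosome 16 window was the most crowded and had the clearest edges. Its 175 quiescent and 95 hypertrophic summits all lay between 27197369 and 27999414, and no peak of either list lay in the 204252 bp before the first of them. The median distance between neighbouring quiescent summits was 2309 bp. Quiescent-only peaks outnumbered hypertrophic-only peaks in 9 of 10 bins, with 16 between 27500001 and 27600000. The 500 kb below this stretch held 1 quiescent-only peak and 5 shared quiescent peaks, and the 500 kb above it held 1 and 8. The last quiescent summit lay only 587 bp inside the window's upper end, and the next peak, 84624 bp beyond that end, was shared with a height of 8 against 9.

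Within this crowd the quiescent-only peaks interleaved with shared ones. Of the 87, 34 lay within 1000 bp of a hypertrophic peak, 39.1% against 14.3% of all quiescent-only peaks, and 16 lay in runs of 5 or more. The window held 95 hypertrophic peaks per Mb, and how far the nearness follows from their density was not tested. The strongest series was a run of 4 with summits from 27545507 to 27547761 and scores from 147.26 to 490.49. It ended in the highest-scoring quiescent-only peak of all 6 windows, at chr16:27547430-27548042, with a height of 25 and a distance of 2179 bp to the nearest hypertrophic peak. A taller quiescent-only peak, at chr16:27461046-27462043, reached a height of 59 with a score of only 102.46. This window held 11 of the 17 quiescent-only summits of 20 or more. They were 12.6% of its 87 quiescent-only peaks, against 14.8% in the whole list and 17.9% in the third chromosome 16 window. The first chromosome 16, the chromosome 17 and the second chromosome 1 windows had none. At the lower edge a run of 5 from 27197369 to 27211221, with scores up to 201.29, led up to a shared peak 617 bp further on that scored 1614.5 at a height of 67. The highest-scoring of the 6 hypertrophic-only peaks, at chr16:27754110-27754254, scored 159.99 at a height of 18.

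The third chromosome 16 window was sparse, with 32 quiescent and 8 hypertrophic peaks over 1.5 Mb. Its count came mainly from a single stretch: the bin from 37800001 to 37900000 held 17 of the 28 quiescent-only peaks (60.7%). The run of 22 had summits from 37307224 to 37898572, a span of 591348 bp. Its scores ranged from 51.66 to 200.83 with a median of 79.8, and its heights from 7 to 26 with a median of 11.5. Gaps between successive summits ranged from 259 to 268271 bp, so the run joined scattered single peaks with a tight group at its upper end.

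That tight group had 15 peaks with summits from 37870467 to 37893397, 22930 bp apart, when peaks up to 5000 bp from the next were joined. Neighbouring summits lay a median of 1396.5 bp apart, and the peaks covered 7744 bp, 33.1% of the stretch. Heights ran from 7 to 26 with a median of 12, and 6 of the 15 scored 100 or more. The highest and widest of them, at chr16:37876639-37877695, was 1057 bp wide, scored 200.83 at a height of 14 and lay 22992 bp from the nearest hypertrophic peak. No hypertrophic peak was listed within the group.

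The run's edges were shared sites that were weak in the hypertrophic list. On the lower side, 59238 bp before the first summit, the shared peak at chr16:37247828-37248507 scored 515.2 with a height of 17 in quiescent and 84.52 with a height of 10 in hypertrophic cells. On the upper side, 2305 bp after the last summit, a shared quiescent summit at 37900877 scored 360.75 with a height of 19, and its hypertrophic partner scored 53.59 with a height of 11. A further run of 5 began at 37902480 but spread over 687446 bp, with its last summit beyond the window. The tallest quiescent-only peak of the window lay outside both runs, at chr16:37093739-37094534, with a height of 30 and a score of 60.25. This window differed from the others in that 2 of its 4 paired sites were taller in the hypertrophic list, among them a site with a height of 26 against 55.

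**Figure D3:**
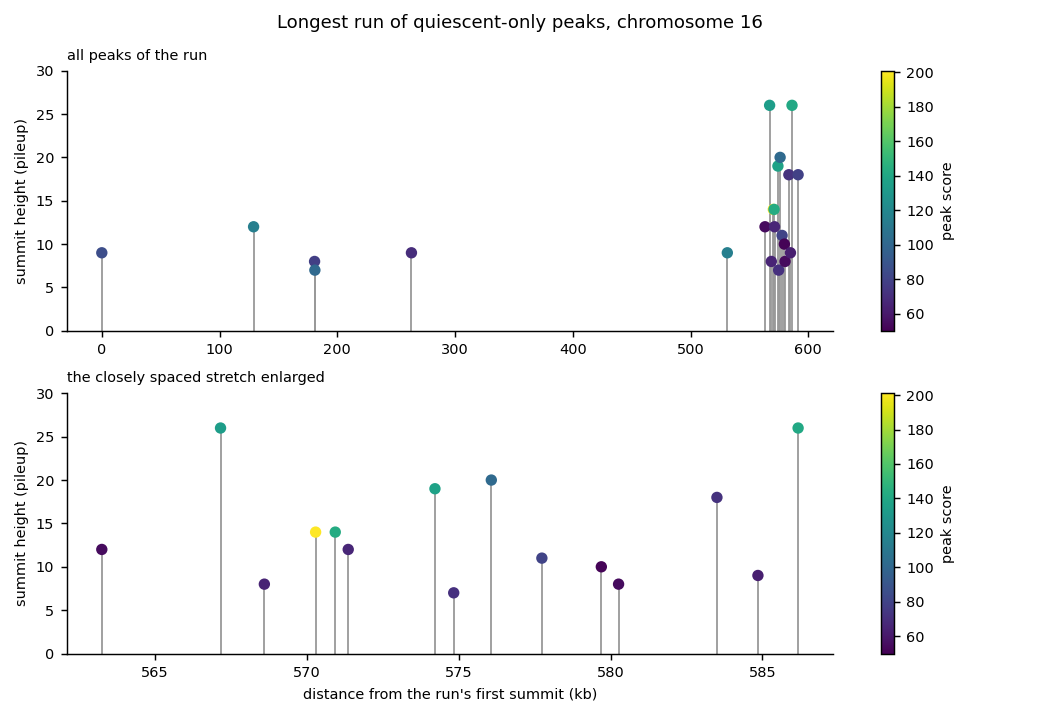
Summit height in piled-up reads of the 22 peaks of the longest quiescent-only run, in the third chromosome 16 window, against the distance from its first summit in kb, coloured by peak score. The upper panel has all peaks and the lower panel the 15 closely spaced ones, whose heights run from 7 to 26 without a steady order along the stretch.

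The chromosome 17 window had the most long runs, with median scores from 56.91 to 98.18. Of its 67 quiescent-only peaks 51 lay in runs of 5 or more. The median distance of the 67 to a hypertrophic peak was 20059 bp, against 9736 bp for all quiescent-only peaks of the list. The window held 15.3 hypertrophic peaks per Mb, so this distance follows in part from the choice of the windows. The longest run had 12 peaks, from 67962124 to 68112353, with a median score of 59.1 and a median height of 6. Gaps between its successive summits ranged from 277 to 59383 bp. Runs of 8 reached from 67537160 to 67605923 and from 67881317 to 67952476, and the latter held a peak with a score of 264.79. The remaining long runs had 7, 6, 5 and 5 peaks. When gaps over 20000 bp ended a run, 12 peaks of the window stayed in runs of 5 or more, and the longest run had 6. Counting only peaks that scored 100 or more left none in such runs. The highest-scoring quiescent-only peak of the window, at chr17:68268523-68269699, was also its widest at 1177 bp, scoring 452.57 at a height of only 10. Its tallest reached 13, so no quiescent-only summit of this window was tall.

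The series of runs lay between 67155524 and 68294639, a stretch of 1.14 Mb with 66 quiescent-only and 2 hypertrophic-only peaks. In the 500 kb below it 3 quiescent-only and 9 hypertrophic-only peaks were found, and in the 500 kb above it 1 and 2. The lowest part of the window was different from the rest: 7 shared sites between 67004932 and 67059648 had quiescent heights of 9 to 45, and the strongest, at chr17:67059246-67059876, scored 1616.39 with a height of 34 in quiescent and 1625.05 with a height of 36 in hypertrophic cells. Inside the stretch of runs the 12 shared quiescent peaks were low, with heights of 7 to 14 over hypertrophic heights of 5 to 7, apart from a site at 67730314 with a height of 50 against 62. Most shared sites of the stretch were thus barely above the score limit in the hypertrophic list, where their median score over the window was 54.9, and a site tall in both lists stood among them.

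The chromosome 1 windows paired very strong shared sites with faint quiescent-only peaks. Median scores of shared quiescent peaks were 903 and 1393 in the first and second window, with median heights of 40 and 57, against 372 and 20 for the 6 windows together. The quiescent-only peaks between them had median scores of 75.8 and 73.1 and median heights of 8 and 6.5. The highest-scoring of these in the first window, at chr1:50563892-50564242, scored 201.38 at a height of 20, and that in the second, at chr1:52844886-52845103, had 128.5 and 13. The highest quiescent score here, 3100, was shared by 603 peaks of the quiescent list, with 45 above it, and was reached by 2 shared peaks in the first window and 4 in the second, so scores do not order them. Those at chr1:50364667-50365282 and chr1:52998859-52999673 had heights of 85 and 98, against scores of 1884.68 and 1887.55 and heights of 60 and 72 in the hypertrophic list.

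In the first and second window 5 of 35 (14.3%) and 5 of 34 (14.7%) quiescent-only peaks lay in runs of 5 or more. In the whole list the share was 5.97%, and in the 6 windows together it was 39.0%. Each window had 1 run of 5, from 50738588 to 50812007 and from 52354372 to 52436103, with scores of 52.92 to 92.23 and 52.92 to 107.63. In the second window 17 of 34 quiescent-only peaks lay within 1000 bp of a hypertrophic peak and in the first 7 of 35, against 14.3% of all quiescent-only peaks. The first and second window held 34 and 35 hypertrophic peaks per Mb, and how far the nearness follows from their density was not tested. The quiescent-only peaks were spread over most of both windows, with more quiescent-only than hypertrophic-only peaks in 10 of 10 and 9 of 10 bins of 100 kb. The first window's hypertrophic-only peaks were a peak at chr1:50182804-50182949 that scored 73.63 at a height of 9, and one at chr1:50569400-50569847 that had a height of 48 with a score of only 72.17. The second window had none.

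Both chromosome 1 windows belonged to 1 longer stretch. Going outward in bins of 100 kb until 2 successive bins held no more quiescent-only than hypertrophic-only peaks, a rule chosen after seeing the data, the stretch reached from 49902891 to 52998329, 3.10 Mb. It held 100 quiescent-only and 4 hypertrophic-only peaks, and the 51 to 52 Mb between the windows held 27 and 2 of them. The 500 kb below held 1 peak of each kind and no shared quiescent peak. Above, 10 quiescent-only and 2 hypertrophic-only peaks were found. With bins of 50 kb the stretch broke into 1.20 and 0.765 Mb around the windows, so its unbroken extent depends on the bin. By the same rule the first chromosome 16 window belonged to a stretch of 1.99 Mb (0.597 Mb with bins of 50 kb), and the second gave 0.802 Mb with either bin. From the fullest bin of the third, the rule gave 37838461 to 39374778, which leaves out the lower part of the window and runs past its end, and only 0.0640 Mb with bins of 50 kb. In that longer stretch 12 of 27 pairs were taller in the quiescent list, with a median log2 ratio of 0.

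Shared sites in the windows were taller in the quiescent list as well. These were compared as pairs of overlapping peaks with summits at most 100 bp apart, of which the windows held 184. Pairs with the same heights as another pair were each counted. In the whole lists 30.5% of 42739 pairs had the taller summit in the quiescent list and 52.4% the higher quiescent score. In the windows 162 of 184 pairs (88.0%) were taller in the quiescent list, 8 were tied and 14 were taller in the hypertrophic list, and 174 (94.6%) had the higher quiescent score. Their median heights were 22 in the quiescent and 15 in the hypertrophic list, a median log2 ratio of 0.51 with quartiles of 0.24 and 0.73, where all pairs had a median of -0.16. The pair heights were not used to choose the windows, but they come from the same lists as the peak counts, so they are a description and no independent support of them.

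By window, the share of pairs taller in quiescent cells was 27 of 32 and 67 of 80 in the first and second chromosome 16 windows, 2 of 4 in the third, 6 of 7 on chromosome 17, and 29 of 30 and 31 of 31 on chromosome 1. The chromosome 17 pairs cover 7 of 19 shared quiescent peaks. Sites left out there include those at 67059648 and 67730314, taller in the hypertrophic list. Also left out are the repeated sites described below, taller in the quiescent list. Median log2 height ratios were 0.66, 0.48, 0.30, 0.36, 0.54 and 0.50 in that order. The median quiescent heights behind them were 18 to 20 on chromosome 16 and 42.5 and 57 on chromosome 1. The quartiles of the ratios were 0.24 and 0.75 in the second chromosome 16 window and 0.39 and 0.58 in the second chromosome 1 window, so the latter spread less. Some of these pairs had the same heights in both lists as another pair of their window. Among pairs with quiescent heights of at least 30 these were 4 of 21 and 5 of 18 in the chromosome 1 windows. In the first and second chromosome 16 windows they were 2 of 4 and 2 of 31. Lower pairs also repeated and are not in these counts, such as heights of 20 against 11 at several places of the first chromosome 16 window. In the third chromosome 16 window the ratio rests on 4 pairs. Over those with scores of at least 100 in both lists the median turned to -0.63. That limit left only the 2 pairs taller in the hypertrophic list.

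**Figure D4:**
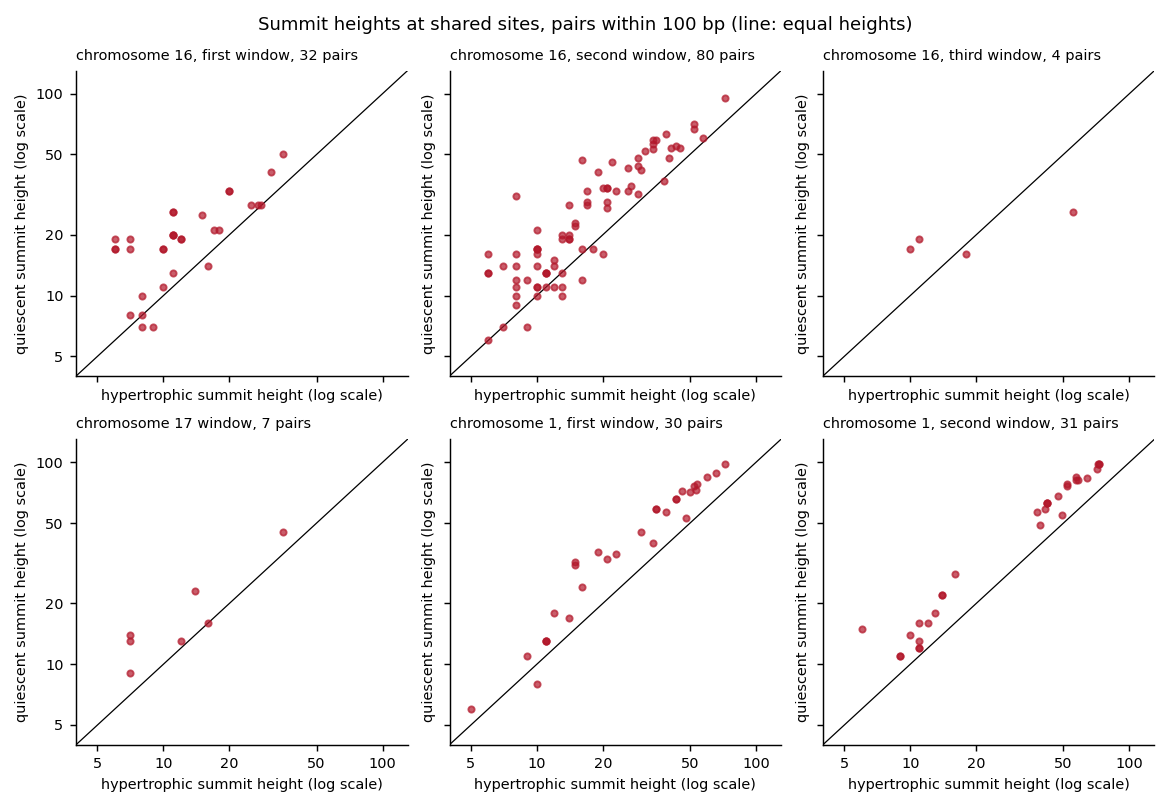
Quiescent against hypertrophic summit height in piled-up reads, both on log axes, for the 184 shared pairs of the 6 windows; each point is a pair and the line marks equal heights. Points lie above the line for 162 pairs, and those of the chromosome 1 windows run parallel to it.

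The height ratio differed between the windows and the 1 Mb on each side in some cases. In the 1 Mb below and above the second chromosome 16 window the median log2 ratios were -0.26 over 13 pairs and -0.13 over 10 pairs, against 0.48 inside. Beside the chromosome 17 window they were -0.54 over 16 pairs and -0.37 over 40 pairs, against 0.36 inside, which rests on 7 pairs, only 2 of them within the stretch of runs. Beside the third chromosome 16 window they were -0.16 over 21 pairs and 0 over 26 pairs, against 0.30 over its 4 pairs. Around the first chromosome 16 window the medians were 0.24 below and 0.01 above, but there the higher ratios went on past the window's borders. Over the stretch of 1.99 Mb around it the median was 0.51. In the 500 kb below and above that stretch it was -0.14 over 14 pairs and 0 over 7 pairs. In the 1 Mb below the first chromosome 1 window the median was 0.59 over only 4 pairs, all taller in the quiescent list, against 0.54 inside. On chromosome 1 the ratio kept at 0.49 through the 1 Mb between the windows, where 26 of 29 pairs were taller in the quiescent list. In the 1 Mb above the second window the median was 0 over 15 pairs, 5 of which were taller in the quiescent list, while quiescent-only peaks there still made up 16 of 32 quiescent peaks.

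**Figure D5:**
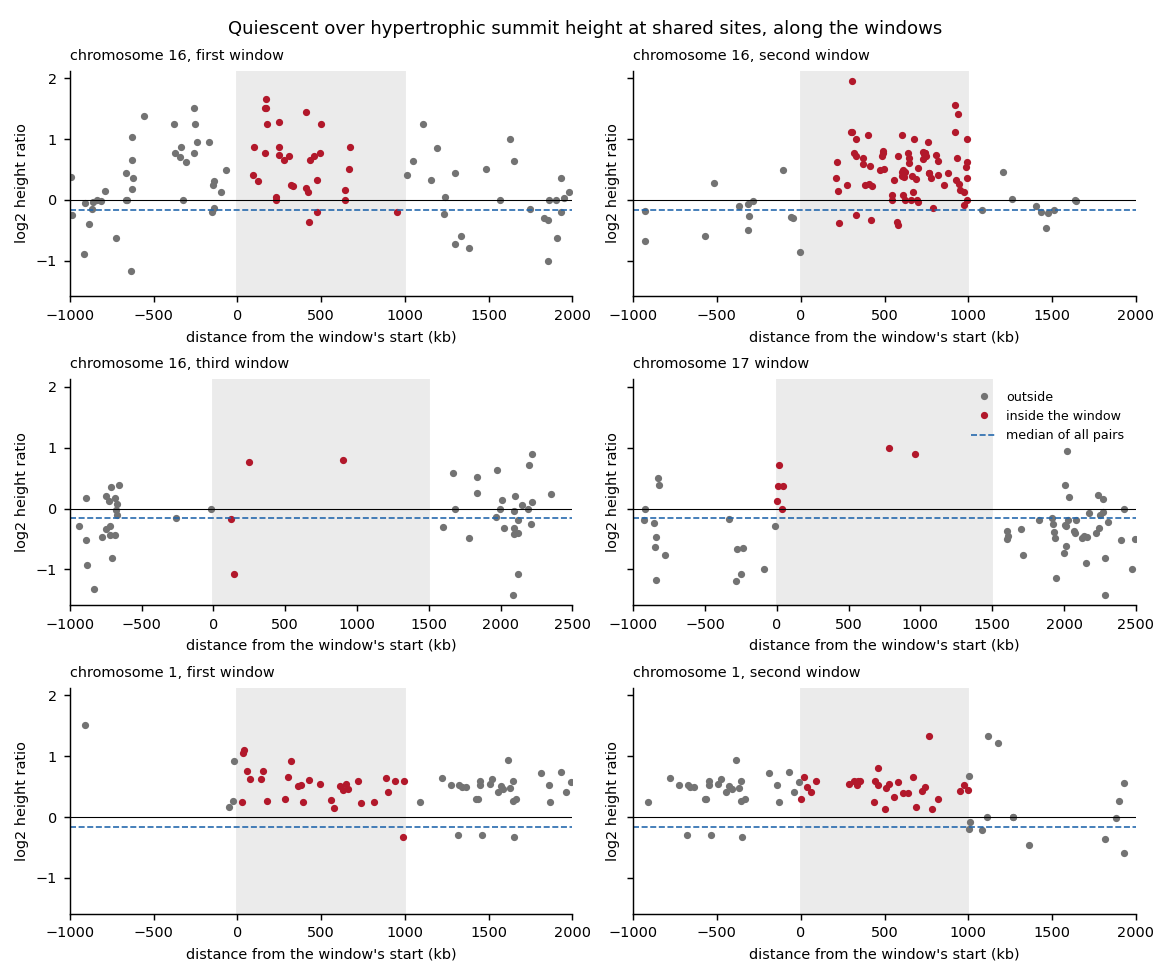
Log2 ratio of quiescent over hypertrophic summit height for each shared pair against its distance from the window's start in kb, with pairs inside the window in red, those within 1 Mb outside in grey and the median of all pairs of the lists (-0.16) as a dashed line. In the second chromosome 1 window all 31 red points lie above 0, and the grey points past its upper edge are spread on both sides of 0.

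Some peaks of the windows repeated each other exactly. In the quiescent list 51 of 511 window peaks (9.98%) had the same width, score and height as another quiescent peak within 1 Mb, against 514 of 67929 (0.757%) outside the windows. In the hypertrophic list the numbers were 24 of 240 and 404 of 65299 (0.619%). Low peaks can take few different values, and a crowded region offers more peaks to match. Among quiescent peaks with heights of 12 or less 15.1% repeated another inside the windows and 1.41% outside, and among taller ones 3.20% and 0.312%. The windows were unequal in this: 21 of 86 quiescent peaks repeated on chromosome 17, 13 of 66 in the first and 5 of 69 in the second chromosome 1 window. In the chromosome 16 windows in order they were 8 of 83, 4 of 175 and 0 of 32. Of the hypertrophic peaks 6 of 23 repeated on chromosome 17, and 5 of 34 and 0 of 35 in the chromosome 1 windows. In the chromosome 16 windows in order the hypertrophic numbers were 9 of 45, 4 of 95 and 0 of 8. This comparison was made after seeing the data, and the cause of the repeats was not tested.

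On chromosome 17 the repeats included sites where the hypertrophic peaks repeated under quiescent peaks, and at a pair of these sites the quiescent peaks repeated as well. At 4 places, with hypertrophic summits at 67346180, 67530568, 67809513 and 67864141, the hypertrophic peak was 269 bp wide and scored 54.85 at a height of 7. The quiescent peaks over them did not repeat each other: they were 312 to 601 bp wide and scored 158.87 to 228.34 with heights of 11 or 12. At another pair of places, near 67232221 and 67846924, the hypertrophic peaks were both 216 bp wide with a score of 53.90 and the quiescent peaks both 306 bp wide with a score of 171.89. At all 6 places the summits of the lists lay 107 to 111 bp apart. Since all lay over 100 bp apart, none of these sites entered the height pairs. Among the quiescent-only peaks, a peak of 244 bp with a score of 50.90 and a peak of 208 bp with a score of 56.41 each occurred 4 times in the window, and these repeats stood at ends of runs in several cases, as at 67317021 and 67605923.

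On chromosome 1 some of the repeats were tall, while the other 8 in the first window had heights of 4 to 8 and the 5 in the second of 4 or 5. The quiescent peaks with summits at 50059852 and 50154310 were both 640 bp wide and scored 954.69 at a height of 59, and their hypertrophic partners both scored 388.00 with a height of 35. Those at 50073875 and 50140295 were both 721 bp wide and scored 1706.1 at a height of 66, over hypertrophic partners that both scored 674.64 with a height of 43. The inner and the outer pair were arranged around nearly the same midpoint, 50107081 and 50107085. Faint quiescent-only peaks of 237 bp with a score of 52.19 at 50065030 and 50149137 were repeated in the same way between them, so a stretch of peaks recurred in mirrored order. Farther apart, the peaks at 50377103 and 51275402 were both 783 bp wide and scored 2059.25 at a height of 78, and each was followed 1152 bp on by a quiescent-only peak that scored 73.6 at a height of 6. A faint peak of 230 bp that scored 52.92 at a height of 4 was followed by another quiescent-only peak at a distance of 353 bp at 3 places, starting at 50289216, 50352120 and 50781122.

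The windows' borders are round positions and cut through the series of peaks in places. The last quiescent summit inside the first chromosome 16 window lay 914 bp from its end and scored 101.33 at a height of 9. The first beyond it lay 13392 bp outside and scored 112.82 at a height of 8. On chromosome 17 the last quiescent summit lay 205362 bp inside the upper end with a score of 73.52, so the series ended before the border. The first summit inside the second chromosome 1 window, 2102 bp from its start, was quiescent-only with a score of 74.18, and the last before it, 8777 bp outside, was a shared peak with a height of 55 against 37. The third chromosome 16 window closed with a quiescent-only peak 38285 bp inside its end with a score of 54.84, followed 89925 bp outside by a quiescent-only peak with a score of 119.59.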

How the data were processed

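RNA of newborn rat cardiomyocytes was measured by MeRIP-seq. Per the submitters' processing notes the authors used CASAVA 1.8, TopHat, MACS 1.4 and build rn4. The deposited score of a peak and the deposited signal at its summit, the pileup height, were used as given; the sources used here give no read totals. The members and lists were chosen with earlier results of these data known. Each list has 1 column of scores and 1 of heights, and 0 columns of values were left out.

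Peaks sharing at least 1 bp were called shared; pairs are overlapping peaks with summits at most 100 bp apart. Runs and bins of 100 kb were counted by summit. Positions count from 1. Named in each window are the highest-scoring, tallest and widest quiescent-only peak, the shared peak with the highest score (the widest where scores tie), the ends of the longest run, hypertrophic-only peaks (all where 3 or fewer, otherwise the highest-scoring) and the peaks at the borders; repeated peaks, further runs and some neighbours were chosen after their values were seen. No test was made and no p-value computed, since the labels' groups reach the files as 1 list per condition. The sharing and run rules were tested on simulated data, a copy of the hypertrophic list with stretches of peaks taken out. The kept peaks had unchanged positions, so partial overlaps and shifted summits were not tested. Python 3.11.15, numpy 2.4.6, pandas 2.3.3 and matplotlib 3.10.9 were used.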

Additional observations from a re-analysis of the deposited data

How the results depend on the processing

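With 1 list per condition no replicate could be left out. No paired analysis was possible because no result comes from a test and the lists carry no replicate numbers. Quiescent-only peaks in the 6 windows numbered 295, and 145 over peaks with scores of at least 100 in both lists, 84 counting only such quiescent-only peaks, and 163 with peaks within 1000 bp joined. Hypertrophic-only peaks numbered 19, and 3 and 1 with those score limits and 56 (23.3%, against 34.8% in the whole list) when sharing was set by summits within 100 bp. The quiescent-only share of 57.7% became 64.0% by summits, 64.2% with 50% overlap, 52.3% and 30.3% with the score limits, and 46.0% joined, against 37.6%, 31.3%, 29.1%, 14.6% and 27.6% in the whole list. With the score limits the longest run of 22 became 17 and 9. The run of 17 lay on chromosome 17, while the longest in the third chromosome 16 window then had 13. The 115 peaks in runs of 5 or more became 56 and 9 with the score limits and 50 when gaps over 20000 bp ended a run. Median score and height of 76.5 and 8 became 136.5 and 12 over scores of at least 100. The median log2 height ratio stayed between 0.51 and 0.52 and the score ratio between 1.04 and 1.11. Without the second chromosome 16 window, an alternative added after seeing the data, as were the pairs with scores of at least 100 in both lists and the bins of 50 kb, 208 quiescent-only peaks and a share of 61.9% remained. Of 264 values by window 173 stayed close, 89 moved and 2 reversed: over pairs with scores of at least 100 in both lists, the third chromosome 16 window went from 0.30 to -0.63 in log2 height and from 1.34 to -0.61 in log2 score. That window then kept only its 2 pairs taller in the hypertrophic list. What depth limits was not measured here, since read totals and the scaling of heights are not known.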
